A study of Mus musculus with 4 samples.

Results

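Gata2, Gata3, Gata4, Gata5 and Gata6 encode zinc finger transcription factors of the GATA family, and this is a description of the accessible chromatin around the 5 genes in early mouse forelimb buds. Open regions were mapped by ATAC-seq, in which a transposase inserts sequencing adapters into accessible DNA. The genes were chosen by name with earlier region counts, scores and overlaps of these same data known, so those measured values are given as a description and were not tested. A region was assigned to a Gata gene when the protein-coding transcription start nearest to its centre belonged to that gene, or when a start of the gene was no more than 2.5 kb from that centre. By this rule 33 of the 42613 regions listed at embryonic day 9.5 (E9.5) and 31 of the 46765 regions listed at E10.5 belonged to the Gata genes. Starts were those of the GENCODE vM1 annotation, and all coordinates are mm9.

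Wild-type NMRI embryos were used at both stages, with no mutation or treatment in either group. Each of the 2 replicates of a stage was the forelimb bud pair of 1 embryo. The E9.5 samples, staged at E9.75 in the protocol, kept the adjoining piece of trunk, whereas the protocol names forelimbs alone for E10.5 and the tissue label of the later samples also names hindlimb buds. Stage and trunk tissue therefore cannot be told apart in any of the values below. In such bulk tissue, fewer cells with an open region and less accessibility per cell cannot be told apart either.

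GATA proteins recognise short DNA words built around GATA and can open chromatin for other factors. Gata2 is required in blood stem cells and endothelium, and Gata3 in T lymphocytes, sympathetic neurons, the inner ear and the nephric duct. Gata4, Gata5 and Gata6 act together in heart, foregut and lateral plate mesoderm, the tissue from which limb mesenchyme arises. In the limb bud, Gata4 and Gata6 are known to restrain Sonic hedgehog, the signal of the posterior margin, in anterior cells.

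The deposited score of a region is 10 times the negative log10 of its best peak-calling p-value, so it grows with sequencing depth. For that reason a score is set beside its percentile within the list of its own stage, called its rank here, and stages are compared by rank. The authors had joined the replicates into 1 list per stage. No value has a replicate error, sequencing depth is unknown, and no test between stages was made. Shares carry a 95% Wilson interval that covers counting error only. The Gata regions spanned most of the scale, with scores from 90.22 to 3008.82 (median 160.99) at E9.5 and from 84.11 to 2629.8 (median 207.99) at E10.5. Their median ranks were 31.6% and 44.3%.

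Gata3 held the most regions at both stages. It had 14 regions at E9.5 and 16 at E10.5, against 6 and 7 for Gata6, 6 and 3 for Gata4, 4 and 3 for Gata2, and 3 and 2 for Gata5. Counting nearest regions alone, without the 2.5 kb rule, Gata3 had 13 and 15. Of the 22238 protein-coding genes, 98.8% had fewer nearest regions than Gata3 in the earlier list and 98.6% in the later. For Gata5, at the other end of the family, these figures were 76.5% and 61.8%. The order of Gata2, Gata4 and Gata5 rests on differences of a few regions and is not secure. Nor is the lead of Gata3 at E9.5, since in the higher-scoring 50% of that list it had 2 regions against 3 each for Gata2 and Gata5.

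**Figure D1:**
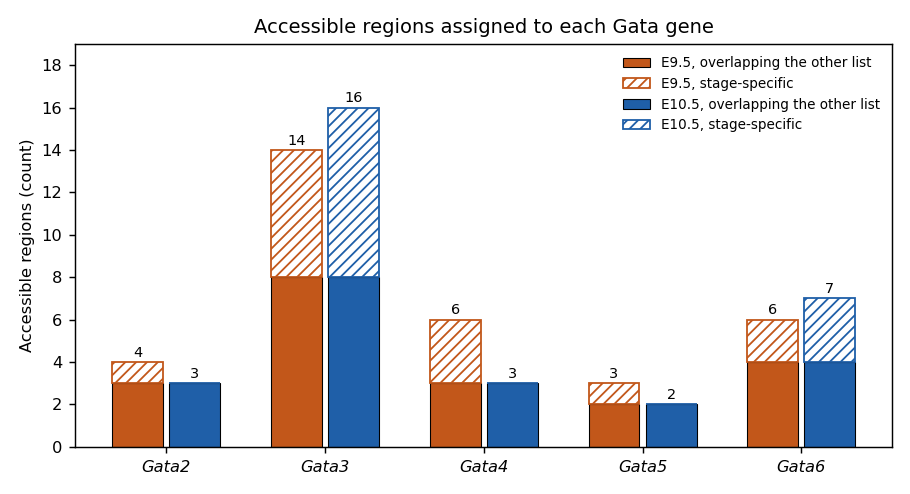
Number of accessible regions assigned to each Gata gene (y axis, count) at E9.5 (orange) and E10.5 (blue). Filled parts of a bar overlap a region of the other stage and hatched parts do not. There is 1 list per stage and no error bar. All E10.5-specific regions belong to Gata3 (8) and Gata6 (3).

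Most Gata regions were open at both stages. Regions with at least 1 bp in common between the lists are termed shared, and those without are termed stage-specific. The 20 shared Gata regions of each list matched 1 to 1. At E9.5, 13 of 33 (39.4%, interval 24.7 to 56.3) were stage-specific, beside 29.9% of all E9.5 regions. At E10.5, 11 of 31 (35.5%, 21.1 to 53.1) were, beside 35.0% of all E10.5 regions, so the share at the later stage was that of the list as a whole. The 13 were spread over all 5 genes, with 6 at Gata3, 3 at Gata4, 2 at Gata6 and 1 each at Gata2 and Gata5. The 11 were at Gata3 (8) and Gata6 (3) alone, and all 11 were distal, that is, over 2.5 kb from every start of the gene. At E9.5, 12 of the 13 were distal. Stage-specific regions were mostly distal in the lists as a whole too, at 10584 of 12730 and 15573 of 16390. Stage-specific regions were weak ones in both lists. Their scores had a median of 128.38 (90.22 to 344.16) at E9.5 and 140.93 (84.11 to 403.22) at E10.5, near the medians of 145.08 and 152.55 over all stage-specific regions.

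These assignments depend on which genes count as neighbours. When starts of all gene types, non-coding ones included, were used, Gata3 kept 9 regions at E9.5 and 5 at E10.5, Gata6 kept 2 and 2, and none of the remaining 15 E10.5 regions was stage-specific. The E10.5-specific regions of both genes therefore lie nearest to Gata3 or Gata6 among protein-coding genes alone, and nearer to annotated starts of other gene types.

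Gata2 had the largest median rank difference between the stages over its shared regions, 30.4 percentage points. It lies on the plus strand of chromosome 6 (chr6:88143885-88157024), 109 kb from the start of Rpn1 and 23.6 kb from that of Dnajb8, and has annotated starts at 88143885 and 88148658. The region over the upstream start scored 341.2 at E9.5 and 104.67 at E10.5, ranks of 57.6% and 10.3%. Over the downstream start the scores were 1035.27 and 242.39, ranks of 80.6% and 50.2%. A region centred 3.57 kb upstream of the gene at E9.5 and 4.07 kb upstream at E10.5 scored 699.65 and 348.53, ranks of 72.9% and 61.9%. All 3 shared regions of Gata2 thus ranked higher at E9.5 than at E10.5, by 47.2, 30.4 and 11.0 percentage points. They were also 1.64, 2.04 and 2.28 times as wide at E9.5. With a reciprocal overlap of at least 50% in place of 1 bp, 3 E9.5 regions and 2 E10.5 regions of Gata2 were stage-specific, where 1 and 0 were by the 1 bp rule.

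The remaining E9.5 region of Gata2, chr6:88152777-88153907, had no E10.5 partner. It scored 128.38, a rank of 20.4%, and lay in intron 4. On the plus strand at chr6:88153179-88153198 it held the E-box word CATCTG followed, 8 bases later, by the GATA word AGATAA, 9.30 kb from the upstream start and 4.53 kb from the downstream one. An intronic composite of an E-box and a GATA word is a known enhancer of Gata2 in endothelium and emerging blood stem cells, where TAL1, LMO2 and LDB1 bind with GATA2. The words CATCTG and AGATAA in this order, 6 to 10 bases apart on either strand, occurred in 54 of 42613 regions of the E9.5 list (0.127%) and 54 of 46765 of the E10.5 list (0.115%), and in no other Gata region. The match lay outside the central 300 bases of the region. The 300 bases around the composite are shown first, because they are the only Gata sequence with this arrangement, with both words in capitals. The 300 bases at the centre of the E10.5 upstream region follow, with GATA words (AGATAA or AGATAG, as well as TGATAA or TGATAG, on either strand) in capitals: this window holds 2, in opposite orientations, while the E9.5 window, centred further downstream in the same region, holds none. Both are on the plus strand of mm9.
Gata2 intron 4, chr6:88153040-88153339: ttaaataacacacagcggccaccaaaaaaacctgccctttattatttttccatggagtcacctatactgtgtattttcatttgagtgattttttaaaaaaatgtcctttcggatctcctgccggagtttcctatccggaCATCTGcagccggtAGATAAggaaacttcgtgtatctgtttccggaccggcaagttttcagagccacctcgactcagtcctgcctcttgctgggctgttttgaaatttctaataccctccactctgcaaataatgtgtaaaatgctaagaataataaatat
Gata2 upstream, chr6:88139668-88139967: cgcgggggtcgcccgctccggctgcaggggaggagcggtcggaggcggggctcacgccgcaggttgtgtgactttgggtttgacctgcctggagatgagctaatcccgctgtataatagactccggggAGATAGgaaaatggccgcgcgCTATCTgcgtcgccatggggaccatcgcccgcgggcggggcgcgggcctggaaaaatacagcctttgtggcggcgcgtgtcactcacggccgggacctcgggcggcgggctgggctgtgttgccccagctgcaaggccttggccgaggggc

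Gata3 combined the strongest start region of the family with a long series of weak distal regions. The gene lies on the minus strand (chr2:9778705-9811661) and has 6 annotated starts. At its start 9800227 lay a region that was 3875 bp wide in the earlier list and 4100 bp wide in the later one, with scores of 3008.82 and 2629.8 and ranks of 97.8% and 98.2%. The farthest upstream starts, 9811629 and 9811661, were covered by a region that scored 322.92 and 367.09. That region lies nearer to the start of a neighbouring gene, 9230102O04Rik, and is counted for Gata3 by the 2.5 kb rule. A downstream start at 9797026 had 193.17 and 114.49, and no region of either list covered the starts at 9795299 and 9809411. A region 0.857 kb downstream of the start at 9795299 scored 155.76 and 234.23. Among the promoter-proximal pairs of Gata3, the region at 9797026 ranked higher at E9.5, by 24.2 percentage points, and the others ranked higher at E10.5, by 0.436 to 18.8.

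Distal regions of Gata3 extended far into the interval between Gata3 and Celf2, whose starts are 2793 kb apart. From 20.5 kb to 1199 kb downstream of the nearest start, 7 regions were listed at E9.5, and 11 lay between 296 kb and 1234 kb at E10.5. They overlapped at 3 places, where the scores were 103.5 and 256.21 (464 kb), 134.46 and 233.16 (525 kb), and 141.34 and 154.76 (1199 kb). All 3 ranked higher at E10.5, by 43.8, 26.0 and 5.84 percentage points. The strongest of the 8 E10.5-specific regions, chr2:9495617-9496676, lay 299 kb downstream of Gata3 and scored 403.22, a rank of 65.9%. Another, 586 kb downstream, scored 347.73, a rank of 61.8%, and the remaining 6 scored between 84.11 and 163.49. The E9.5-specific regions of Gata3 scored between 90.22 and 162.34, and the highest of them, chr2:9818932-9820144, lay 7.88 kb upstream. Over the whole interval between the genes, counting regions nearest to either, there were 11 distal regions at E9.5 (8 stage-specific) and 21 at E10.5 (18 stage-specific).

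The centre of the strongest E10.5-specific region is printed as the sequence of the highest distal score of any Gata3 region. It holds no GATA word, so nothing is in capitals (plus strand).
Gata3 downstream, chr2:9495997-9496296: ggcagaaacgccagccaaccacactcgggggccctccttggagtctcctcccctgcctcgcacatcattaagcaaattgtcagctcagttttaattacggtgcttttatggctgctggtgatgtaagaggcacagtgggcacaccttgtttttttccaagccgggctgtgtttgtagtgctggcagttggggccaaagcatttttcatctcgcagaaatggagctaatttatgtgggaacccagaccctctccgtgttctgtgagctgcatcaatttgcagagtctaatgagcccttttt

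Gata4 had 6 regions at E9.5 and 3 at E10.5, and its highest E9.5 score was not at a start. The gene lies on the minus strand (chr14:63817759-63890529) between Neil2 and Blk. The 3 clustered starts near 63864085 shared 1 region, with scores of 544.57 at E9.5 and 188.93 at E10.5 and ranks of 68.0% and 40.3%. Another shared region, 10.7 kb upstream of these starts and in an intron of the longer transcripts, scored 852.63 and 239.09, ranks of 76.8% and 49.7%. The last, 1.65 kb upstream of the internal start 63832444, went the other way, from 199.95 to 456.25 and from rank 40.9% to 69.1%. It gave Gata4 its highest E10.5 score. No region covered that internal start, nor the upstream starts at 63889961 and 63890529, from which the nearest Gata4 region was centred 15.1 kb away or more. The 3 E9.5-specific regions scored 159.15, 119.2 and 103.97. They lay 4.53 kb and 6.35 kb downstream, within the gene, and 67.0 kb upstream.

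The centre of the region 10.7 kb upstream, the strongest distal region of the family at E9.5, is GC-rich (78.3%) and holds no GATA word (plus strand).
Gata4 upstream intron, chr14:63874629-63874928: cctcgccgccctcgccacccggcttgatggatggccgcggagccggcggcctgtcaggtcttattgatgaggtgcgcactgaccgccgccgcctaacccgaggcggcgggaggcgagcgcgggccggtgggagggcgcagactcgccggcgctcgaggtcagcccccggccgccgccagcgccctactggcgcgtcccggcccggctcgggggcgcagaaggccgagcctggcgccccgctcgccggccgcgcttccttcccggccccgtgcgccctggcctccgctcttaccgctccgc

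Gata5 had the fewest regions. It lies on the minus strand (chr2:180059838-180069404), with the start of Gm14318 only 1.70 kb away and that of Slco4a1 at 121.5 kb. The region over both of its starts scored 1159.56 at E9.5 and 406.95 at E10.5, ranks of 82.8% and 66.1%. The E9.5 value was the highest start score outside Gata3. A shared region 12.6 kb upstream scored 274.63 and 207.99, ranks of 51.7% and 44.3%. Its remaining E9.5 region, chr2:180119764-180121597, lay 51.3 kb upstream, had no E10.5 partner and scored 344.16, the highest of any stage-specific Gata region at E9.5. The centre of this region held a run of 70 bases of a dinucleotide repeat. Runs of at least 20 such bases were in the central 300 bases of 3 Gata regions, all stage-specific, and of 506 of the 42613 E9.5 and 516 of the 46765 E10.5 regions. Of all regions with such a run, 171 of the 506 and 200 of the 516 were stage-specific. The others were the E9.5-specific region 7.88 kb upstream of Gata3 (54 bases) and an E10.5-specific region 1234 kb downstream of it (32 bases). The part of the repeats in these overlaps was not tested.

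The sequence of the Gata5 region with the repeat is followed by that of its shared upstream region, the latter with its GATA word in capitals (plus strand).
Gata5 E9.5-specific, chr2:180120531-180120830: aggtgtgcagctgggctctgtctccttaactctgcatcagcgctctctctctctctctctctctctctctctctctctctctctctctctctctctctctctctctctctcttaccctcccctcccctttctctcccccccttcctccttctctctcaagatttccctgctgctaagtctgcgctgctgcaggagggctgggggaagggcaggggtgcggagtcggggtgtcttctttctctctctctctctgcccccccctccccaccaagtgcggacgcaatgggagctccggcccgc
Gata5 shared upstream, chr2:180081830-180082129: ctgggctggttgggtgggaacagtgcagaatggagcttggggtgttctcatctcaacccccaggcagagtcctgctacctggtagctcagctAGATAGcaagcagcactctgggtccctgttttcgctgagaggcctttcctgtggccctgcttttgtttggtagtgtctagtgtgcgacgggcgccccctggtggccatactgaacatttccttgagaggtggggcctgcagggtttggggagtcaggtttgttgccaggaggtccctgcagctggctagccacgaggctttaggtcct

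**Figure D2:**
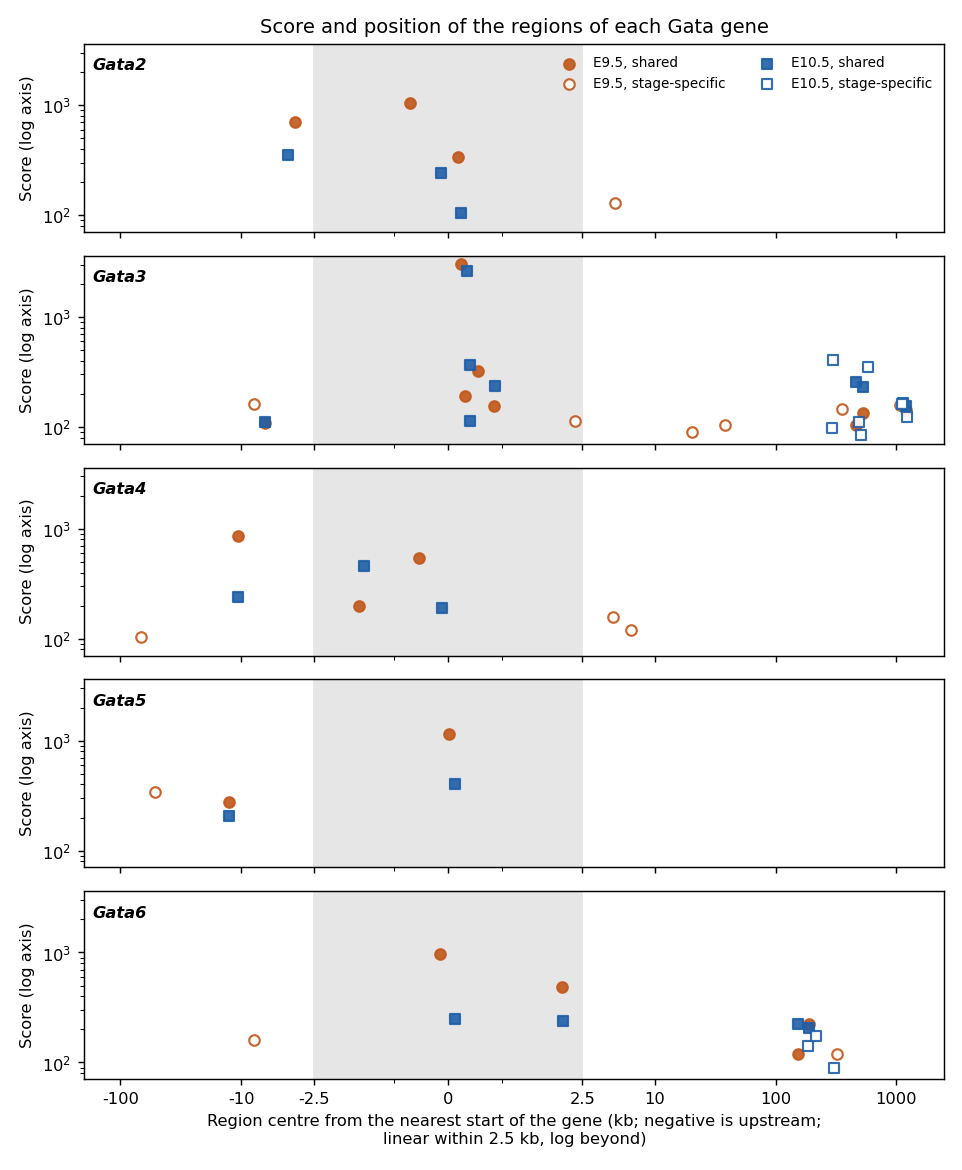
Score of each region (y axis, log scale) against the distance of its centre from the nearest start of the gene (x axis, kb, linear within 2.5 kb and logarithmic beyond), with 1 panel per Gata gene, E9.5 in orange and E10.5 in blue, and stage-specific regions as open symbols. The grey band marks 2.5 kb on either side of a start. Open blue squares occur in the Gata3 and Gata6 panels alone, all more than 100 kb downstream.

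Gata6, which has 1 annotated start, had a start region of higher rank at E9.5 than at E10.5. Its distal regions numbered 4 at E9.5 and 5 at E10.5, beside 26277 and 31376 in the whole lists. Gata6 lies on the plus strand of chromosome 18, with the starts of Mib1 and Rbbp8 at 254 and 739 kb. Its start region scored 975.71 at E9.5 and 246.51 at E10.5, ranks of 79.4% and 50.8%, and was 1.98 times as wide at E9.5. A region 2.13 kb downstream, still within the promoter-proximal distance, scored 487.68 and 237.86, ranks of 65.7% and 49.5%. The distal region 153 kb downstream had 120.44 and 224.54, ranks of 16.9% and 47.4%, so it ranked higher at E10.5. Another at 188 kb had nearly equal ranks of 45.3% and 43.5%. The E9.5-specific regions lay 7.88 kb upstream (160.99) and 320 kb downstream (118.61). The 3 E10.5-specific regions lay 184, 216 and 301 kb downstream and scored 140.93, 174.6 and 89.13. In the 739 kb between the starts of Gata6 and Rbbp8 there were 5 distal regions at E9.5 and 8 at E10.5, of which 2 and 5 were stage-specific. In the whole lists, 10584 of 26277 and 15573 of 31376 distal regions were.

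Shared regions were compared by rank. Over all 20 pairs, 11 ranked higher at E9.5 (55.0%), beside 49.7% of the 29883 shared E9.5 regions of the series. Gata2 had 3 of 3, Gata5 2 of 2, Gata6 3 of 4 and Gata4 2 of 3, and Gata3 had 1 of 8. Grouping the other 4 genes against Gata3 was done after these ranks were seen, and the groups overlap. The promoter-proximal pairs of the 4 genes ran from -28.2 percentage points, near the internal start of Gata4, to 47.2, and those of Gata3 from -18.8 to 24.2. Split by position over all 5 genes, promoter-proximal pairs had a median difference of 16.7 and distal pairs of -2.55 percentage points, beside 1.47 and -4.04 over all shared regions of each kind. In the whole series, 58.4% of shared promoter-proximal and 41.8% of shared distal regions ranked higher at E9.5. In width, 11 of the 20 pairs were wider at E9.5, beside 65.2% of all shared regions.

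**Figure D3:**
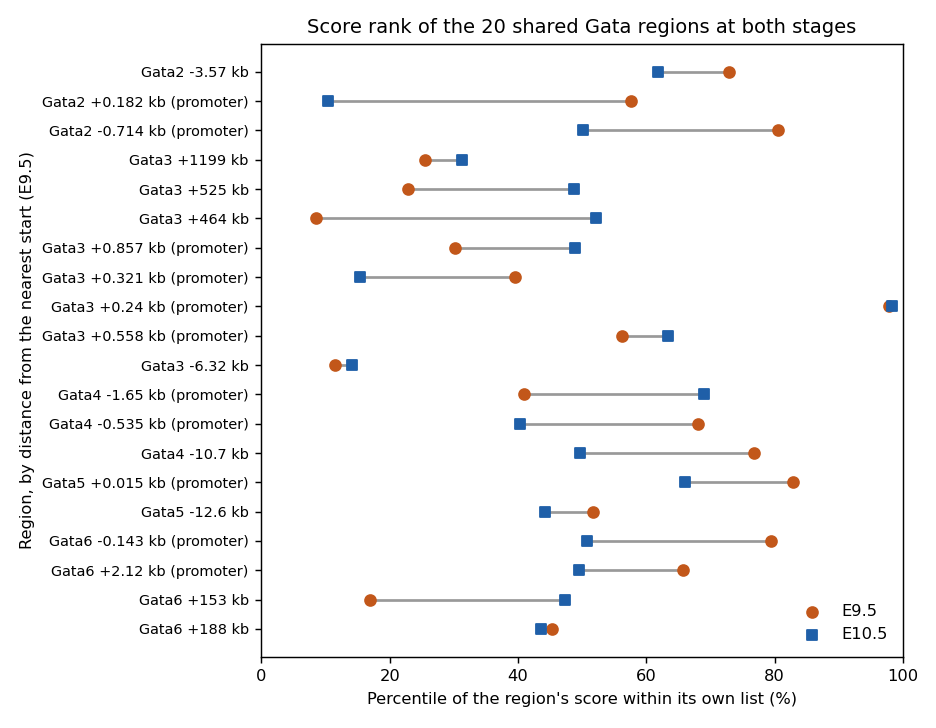
Rank of each of the 20 shared Gata regions within its own list (x axis, percentile of the score) at E9.5 (orange circles) and E10.5 (blue squares), joined by a grey line and named by gene and distance from the nearest start (y axis). Circles lie to the right of squares in 3 of 3 pairs of Gata2, 1 of 8 of Gata3, 2 of 3 of Gata4, 2 of 2 of Gata5 and 3 of 4 of Gata6.

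Regions near starts took about the share that they take in the lists as a whole. Within 2.5 kb of a start were 12 of 33 Gata regions at E9.5 (36.4%, 22.2 to 53.4), beside 38.3% of all E9.5 regions, and 11 of 31 at E10.5 (35.5%, 21.1 to 53.1), beside 32.9%. Next to the limit, the Gata3 region at 2.37 kb and the Gata6 regions at 2.13 and 2.14 kb fell inside it, and the Gata2 region at 3.57 kb fell outside. The promoter-proximal regions had a median score of 414.44 at E9.5 and 242.39 at E10.5, ranks of 61.6% and 50.2%, below the 77.8% and 77.1% of all promoter-proximal regions. The median distance of distal Gata regions was 38.2 kb at E9.5 and 300.3 kb at E10.5, beside 29.5 and 42.3 kb over all distal regions, but the genes contributed different numbers at each stage. Within genes it was 4.13 and 4.07 kb at Gata2, 357 and 519 kb at Gata3, 8.51 and 10.7 kb at Gata4, 31.9 and 12.6 kb at Gata5, and 170 and 187 kb at Gata6. Of the Gata regions, 8 of 33 (24.2%, 12.8 to 41.0) and 16 of 31 (51.6%, 34.8 to 68.0) were over 100 kb from the gene. The corresponding shares of all regions were 13.0% and 19.6%. All of these far regions belonged to Gata3 and Gata6. Base composition followed that of the lists: distal stage-specific Gata regions had a median GC content of 50.3% at E9.5 and 45.3% at E10.5, where all distal stage-specific regions had 51.0% and 44.0%.

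Counting only the nearest gene leaves out regions that lie close to a Gata gene but closer to another. Within 100 kb of a Gata start, 6 further E9.5 and 5 further E10.5 regions lay near Gata2, 6 and 7 near Gata3, 6 and 6 near Gata4, and 8 and 6 near Gata5, with none near Gata6. At Gata3, 2 of them at each stage lay inside the gene itself. The stronger one, chr2:9802217-9805887, scored 1370.43 at E9.5 and its partner 1107.69 at E10.5, and was assigned to 4930412O13Rik.

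GATA words were searched in the central 300 bases of each region, since GATA factors are known to bind regulatory DNA of their own family. At E9.5, 12 of 33 Gata regions held at least 1 of them (36.4%, 22.2 to 53.4), beside 27.2% of all E9.5 regions, and 11 of the 21 distal ones did (52.4%, 32.4 to 71.7), beside 34.6% of all distal E9.5 regions. At E10.5 the counts were 9 of 31 (29.0%, 16.1 to 46.6), beside 27.7%, and 9 of 20 distal ones (45.0%, 25.8 to 65.8), beside 34.1%. Both distal intervals include the share of all distal regions. Over whole regions, promoter-proximal ones included, the Gata share was no higher than that of the lists. It was 26 of 33 (78.8%, beside 78.8%) and 22 of 31 (71.0%, beside 77.1%). For whole distal regions alone it was higher, at 18 of 21 (85.7%, beside 79.0%) and 17 of 20 (85.0%, beside 79.0%). The intervals of these distal shares also include the share of all distal regions. The word AGATAA alone was in 2 of 33 windows (6.06%, 1.68 to 19.6), beside 10.4% of all, and in 2 of 31 (6.45%, 1.79 to 20.7), beside 9.70%. By gene, the E10.5 distal matches were 6 at Gata3 and 1 each at Gata2, Gata5 and Gata6, with none at Gata4.

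The other words were searched in the same way. TGACAG, a word of TALE homeodomain factors such as MEIS, was in 10 of 33 E9.5 windows (30.3%, 17.4 to 47.3), beside 21.4% of all, and in 9 of 31 at E10.5 (29.0%, 16.1 to 46.6), beside 20.7%. Over whole regions the direction was the other way, at 18 of 33 (54.5%), beside 60.4%, and 15 of 31 (48.4%), beside 55.7%. This was not so for whole distal regions alone, at 13 of 21 (61.9%), beside 59.1%, and 11 of 20 (55.0%), beside 54.8%. CAGACA, a SMAD word, was in 6 of 33 (18.2%, 8.61 to 34.4), beside 23.9%, and in 4 of 31 (12.9%, 5.13 to 28.9), beside 22.7%. Over whole regions it was in 15 of 33 Gata regions (45.5%, 29.8 to 62.0), beside 66.7% of all E9.5 regions, and in 9 of 31 (29.0%, 16.1 to 46.6), beside 61.9% of all E10.5 regions. Both of these intervals lie below the share of the list, whereas both intervals of the central windows include it. The lists have 20 Gata regions in common, so the stages are not independent, and several words were searched. None of these differences was tested. Width was not matched between the Gata regions and the lists, whose medians were 964 and 1100 bp at E9.5 and 991 and 1000 bp at E10.5. The E-box CAGCTG was in 7 of 33 windows (21.2%), beside 23.4% of all, and in 5 of 31 (16.1%), beside 21.7%. CATCTG was in 5 (15.2%, beside 23.0%) and 7 (22.6%, beside 25.2%). The TEAD word GGAATG was in 6 (18.2%, beside 16.1%) and 5 (16.1%, beside 16.5%). The forkhead word TGTTTAC was in 1 E9.5 window (3.03%, beside 3.46%) and in 0 of 31 E10.5 windows (interval 0 to 11.0%), beside 3.64%. Over whole regions it was in 3 of 33 (9.09%, 3.14 to 23.6), beside 15.0%, and in 0 of 31 (interval 0 to 11.0%), beside 14.7%. All were searched on both strands, and a match is not a bound site.

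Genes with a similar make-up of regions were ranked by the distance between their counts of shared and stage-specific nearest regions at both stages, on a log2(count + 1) scale. Gata3 had no exact match. Closest to it were Atpbd4, Fut8 and Spred2, at distances of 0.152, 0.193 and 0.222. Exactly the counts of Gata6 were found at 9 other genes, of which Alg10b, Cdkn2b and Gm6878 come first by symbol, and those of Gata4 at 29, Gata2 at 159 and Gata5 at 392. These numbers of matches restate the region counts given above, since few genes hold as many regions as Gata3 and many hold as few as Gata5.

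Regions of the other genes with GATA-type zinc fingers and of known partners of GATA factors were counted in the same way, to be read beside the stage-specific shares over all regions of 29.9% and 35.0%. Of 32 regions nearest to 10 such zinc finger genes at E9.5, 7 were stage-specific, and of 44 at E10.5, 18 were, but only 1 gene had more at E10.5 and 1 had more at E9.5. Most of the latter were at Trps1, a GATA-type repressor of skeletal development, with 16 of its 24 regions at E10.5 and 4 of 12 at E9.5. Rere came next with 2 at each stage. Gata1, the red cell member of the family, had no nearest region at either stage, and neither did Gatad2b and Zglp1. At 13 partner genes, 20 of 76 regions were E9.5-specific and 44 of 100 were E10.5-specific, with more at E10.5 for 6 genes and more at E9.5 for 5. Mef2c, a muscle and heart regulator, had 7 and 14, Hand2, a posterior limb and heart factor, had 1 and 11, and Zfpm1, the FOG1 cofactor of GATA1, had 3 and 0. Nkx2-5, a heart factor, had no promoter-proximal region in either list.

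Among the marker lists counted here, that of the nephric genes differed most in its stage-specific share between the stages. All 5 forelimb genes had a promoter-proximal region in both lists. That of Tbx5 scored only 89.91 at E9.5 and 74.17 at E10.5, near the list minima of 60.52 and 60.44. The share of all protein-coding genes with a promoter-proximal region is not given here, so presence or absence has no baseline. Of the 22238 genes, 6639 at E9.5 and 6782 at E10.5 had no nearest region at all. For the forelimb genes, 13 of 48 nearest regions were E9.5-specific and 35 of 71 E10.5-specific. The E10.5-specific ones were chiefly at Fgf10 (15, and 2 at E9.5) and Hand2 (11, and 1 at E9.5). Lmx1b went the other way, with 8 at E9.5 and 2 at E10.5. Of the nephric genes, 18 of 29 regions were E9.5-specific and 5 of 16 E10.5-specific, with Pax2 at 9 and 1 and without a promoter-proximal region at E10.5. Among heart genes, the counts were 4 of 10 and 3 of 9, with Nkx2-5, Tnnt2 and Actc1 lacking a promoter-proximal region in both lists and Myl7 at E10.5. Endoderm genes, all 5 with a promoter-proximal region in both lists, had 13 of 33 and 19 of 39 and surface ectoderm genes 5 of 14 and 4 of 13. Krt18 and Cdh1 had a promoter-proximal region at E9.5 alone, and Trp63 at neither stage. Of blood genes, Klf1 and Tal1 had promoter-proximal regions at both stages, whereas the globin genes Hba-a1 and Hbb-b1 had none. Copies of globin genes share sequence and can lose reads under unique alignment, and the part of this in their absence was not tested. For endothelium the counts were 8 of 22 and 11 of 25, with Kdr alone having a promoter-proximal region. Hindlimb genes had 10 of 26 and 9 of 25. At E10.5, where the tissue label names hindlimb buds, Tbx4 (135.17) and Isl1 (1988.93) had a promoter-proximal region and Pitx1 had none. All 3 had one at E9.5, where the label names no hindlimb, with scores of 229.23 for Tbx4, 2109.06 for Isl1 and 363.61 for Pitx1. The part of these tissues in the Gata regions was not tested.

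**Figure D4:**
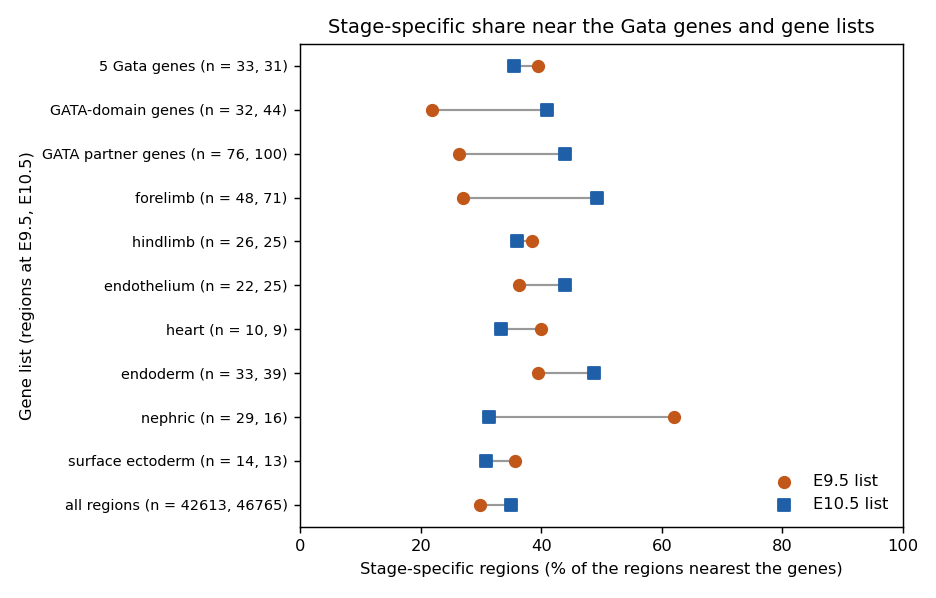
Stage-specific regions as a percentage of the regions nearest to the genes of each list (x axis) at E9.5 (orange circles) and E10.5 (blue squares), with the number of regions beside each list name (y axis) and no error bar. The Gata genes lie at 39.4% and 35.5%, beside 29.9% and 35.0% over all regions, while the nephric list has the widest gap with the E9.5 share higher.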

How the data were processed

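ATAC-seq was measured in 2 replicates at each of 2 stages. Per the submitters' notes and the methods, the authors aligned reads to mm9 with Bowtie 1.1.0 (unique positions, up to 2 mismatches), called regions per replicate with MACS 1.4 and combined replicates with MSPC, with a stringent p-value of 1e-10 and a weak one of 1e-06. The deposited score is a value of the authors, the negative log10 of the lowest p-value that MACS gave, multiplied by 10, and read depth is not given in the sources used here. No columns of other samples were present (0).

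Regions were assigned by centre to 69976 protein-coding starts of GENCODE vM1, and sequence was read from the genome of the same build. Python 3.11.15, numpy 2.4.6, pandas 2.3.3, scipy 1.17.1 (Wilson intervals) and matplotlib 3.10.9 were used, and the assignment, overlap and word search were checked on made-up regions with known answers. Named regions were, per gene and stage, the highest-scoring region, the highest distal and the highest stage-specific one, and every region of a gene with 5 or fewer. Also named were the 3 genes most like each Gata gene and, from the gene lists, genes without a promoter-proximal region and the 2 with most stage-specific regions. The score of a region grows with depth, so ranks within a list were compared. The members and lists were chosen with earlier results of these data known. Alternatives were a score of at least 100, the higher-scoring 50% of each list, other starts and distances, stricter overlap, leaving out each gene, and other word searches. Some marker genes are not reported here, so the blood and neural lists are not counted.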

Additional observations from a re-analysis of the deposited data

How the results depend on the processing

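Of 220 alternative values, 166 stayed within 1.5 times the reported count or within the interval of the share. No paired analysis was possible because both replicates of a stage stand in 1 combined list, and leaving out each replicate was not run for the same reason. Scores of at least 100, distances from the region edge, the nearest start alone, the region centre as overlap, other promoter distances and leaving out genes other than Gata3 moved nothing past these limits. Each of the following settings removes, adds or splits regions by its construction. In the higher-scoring 50% of each list the Gata regions numbered 12 at E9.5 and 10 at E10.5, with 66.7% and 60% promoter-proximal. There Gata3 had 2 and 5, Gata4 2 and 1, Gata6 2 and 1, and Gata5 1 at E10.5, and the stage-specific counts were 0 and 3 for Gata3, 1 and 0 for Gata6, 2 for Gata5 at E9.5 and 1 for Gata4 at E10.5. With starts of all gene types, Gata3 had 9 and 5 regions and Gata6 2 and 2, the E10.5 total was 15 (73.3% promoter-proximal), and stage-specific counts were 0 for Gata5 and Gata6 at E9.5 and 0 for Gata3 and Gata6 at E10.5, a share of 0%. Within 100 kb of a start, the E9.5 total was 51. Gata2 had 10 and 8, Gata4 12 and 9, Gata5 11 and 8, and Gata6 3 and 2, with stage-specific counts of 3 and 1 for Gata2, 3 for Gata5 and 1 for Gata6 at E9.5, and 2 for Gata3, 1 for Gata4 and 0 for Gata6 at E10.5, a share of 10.3%. A reciprocal overlap of at least 50% gave Gata2 3 and 2 stage-specific regions. Leaving out Gata3 left 19 and 15 regions, 20% of the latter stage-specific. GATA words were in 78.8% and 71.0% of whole regions, and AGATAA alone in 6.06% and 6.45% of windows.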
